A study of Mus musculus with 11 samples.

Results

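The 45 genes described here copy DNA or supply its nucleotides: the factors that license and fire replication origins, the replicative polymerases with their clamp and clamp loader, the lagging-strand enzymes, the makers of deoxynucleotides, the E cyclins and 3 chromatin factors of the replication fork. They were chosen by name, and each was read from its brightest probe over all arrays of the non-normalized table. All 45 had a named probe, out of 19057 genes that had one, and 43 of the 45 were among the 11367 genes tested. Pola1 and Pole2 were left out because fewer than 2 arrays detected them. A gene was counted as detected on an array at a detection p under 0.05.

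A cell that is about to divide first loads the ring-shaped MCM helicase onto origins of replication, a step called licensing that needs the origin recognition complex, Cdc6 and Cdt1. Kinases, among them Cdk2 with cyclin E, then fire the origins, and Cdc45 and the GINS complex join MCM to form the working helicase. In bone marrow, long-term stem cells are known to divide rarely, whereas early B cell precursors, myeloid precursors and above all erythroblasts divide often.

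RNA came from C57BL/6 mouse cells of the endosteal marrow, which lies next to the inner bone surface, sorted by flow cytometry. Haemopoietic stem cells (HSC) were sorted as LSK CD150+ CD48- cells (2 arrays), and 3 further populations were sorted as positive for a fluorescein-tagged reagent called AGE and split by CD31 and B220 into CD31+ B220+, CD31+ B220- and CD31- B220- cells (3 arrays each). No group carried a treatment or an engineered allele, and the labels give no age. The titles and cell type labels call the AGE-positive fractions scavenger endothelial cells, but the source name of the CD31- B220- samples begins with HSC, and the titles were followed.

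The labels state that some RNA samples were pooled and do not say whether replicates were separate animals, so p-values measure the spread between these samples only, which may be technical. Levels are normalized log2 signals, and since probes differ in how they bind, levels were compared between groups and never between genes. Markers of the labelled cell types were checked first. Of 10 endothelial markers with a probe, 7 were detected on no CD31- B220- array and 5 on no CD31+ B220+ array, among them Tek, Tie1, Emcn, Stab2 and Lyve1 in each case. In CD31+ B220- cells 6 of the 10 were detected on all 3 arrays and 1, Lyve1, on none. Both HSC arrays detected 7 of the 10, so detection of these markers was not particular to the AGE-positive fractions. Tek, Tie1, Emcn and Robo4 averaged 9.70, 8.41, 10.33 and 11.26 in HSC. Their means in the CD31+ B220- group were 5.44, 5.40, 6.21 and 7.12. For CD31+ B220- minus HSC, limma called 4 of the 9 tested endothelial markers higher (17.5% of all genes) and 4 lower (25%). All 9 tested erythroid markers had a higher level in CD31- B220- than in CD31+ B220- cells (12.1% of all genes). Of 7 stem cell markers, 6 were detected on both HSC arrays, and Hlf on neither. The HSC arrays were brighter before normalization, with a 75th percentile of 376.8 to 450.5 against 145.9 to 211.6 on the other 9, so array brightness and cell type cannot be told apart in the comparisons with HSC. In bulk RNA such as this, fewer cells of a type and less RNA per cell cannot be told apart either.

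Across the AGE-positive fractions the replication genes were highest in CD31- B220- cells. In 38 of 43 members the mean was lowest in CD31+ B220+ cells, intermediate in CD31+ B220- cells and highest in CD31- B220- cells, an order that 19.9% of all tested genes showed, and 39 of 43 had their highest mean of the 4 groups in CD31- B220- cells (22.7% of all genes). These orders carry no test of their own. Limma's F-test over the fractions called 39 of 43 members, against 51.9% of all genes, at an adjusted p under 0.05. The 5 widest ranges between fraction means were those of Ccne1, Orc1, Cdc6, Tk1 and Tyms. The members that missed the F-test were Rfc1, Rfc3, Pold1 and Uhrf1, whose fraction means lay 0.31 to 0.68 apart on the log2 scale.

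**Figure D1:**
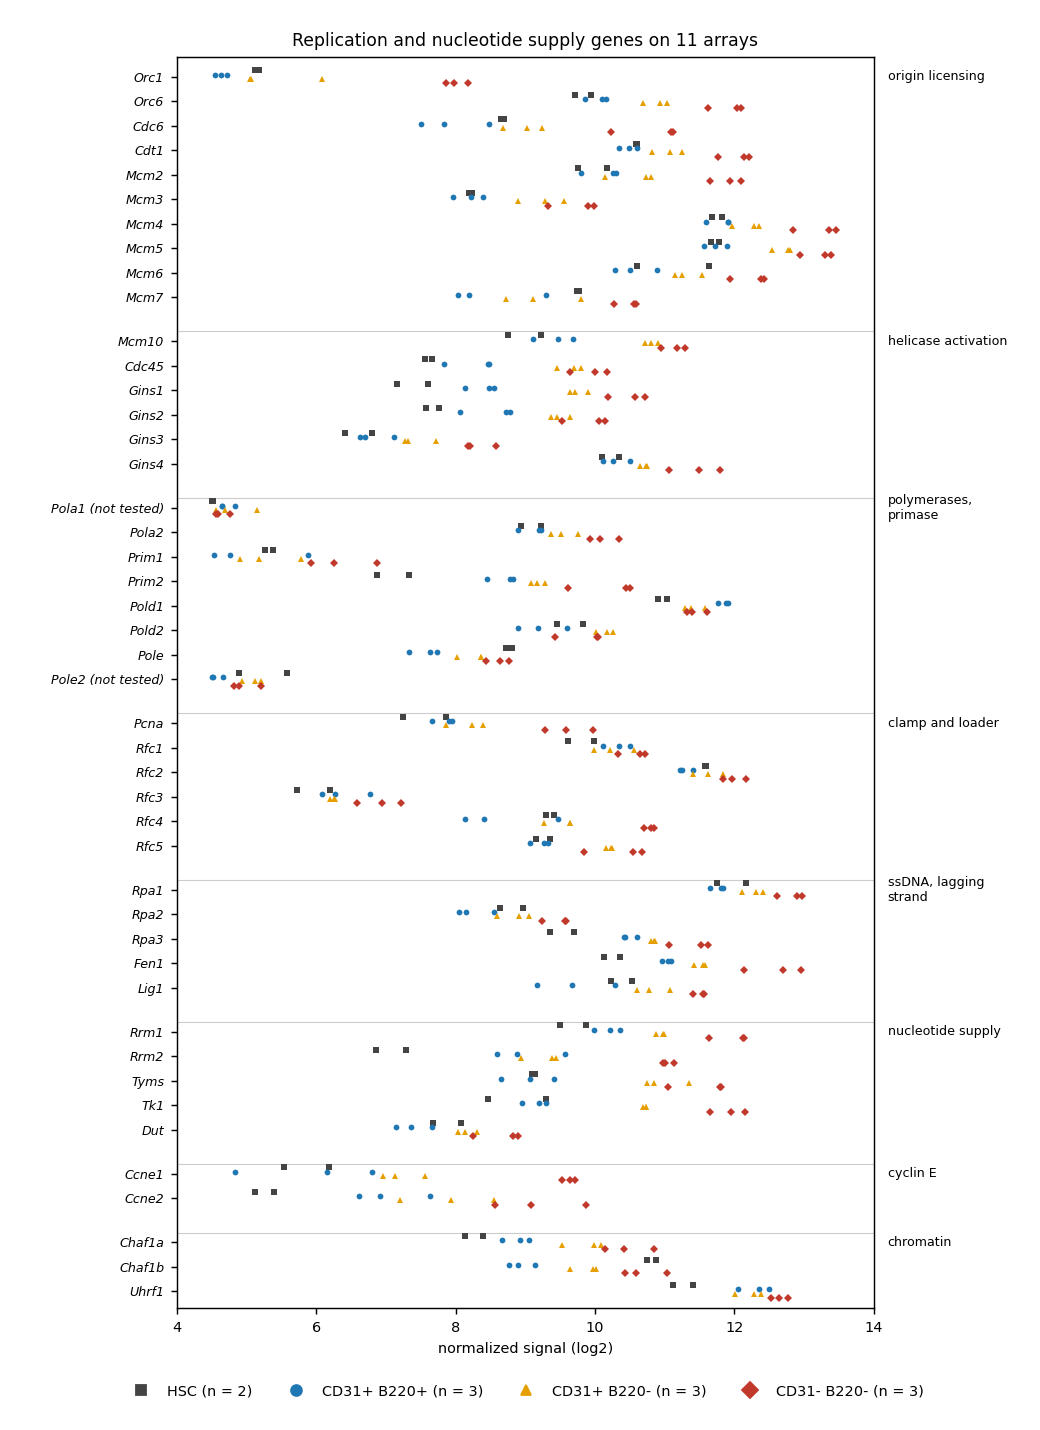
Normalized log2 signal (x axis) of the 45 genes on each of the 11 arrays, grouped by role, with 1 point per array; levels are comparable between groups within a row and not between rows. In most rows the CD31- B220- arrays lie to the right of all others, while Pold1 is highest on the CD31+ B220+ arrays and the untested Pola1 and Pole2 stay near the floor in every group.

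Between CD31- B220- and CD31+ B220+ cells the shift took in nearly all members: 38 of 43 were higher by limma at an adjusted p under 0.05, where 22.5% of all genes were, and 0 were lower, where 22.3% were. At an unadjusted p under 0.05 the counts were 40 and 1 (25.2% and 25.9% of all genes). The median log2 difference of the members was 1.56, against -0.02 over all genes, and the arrays of the groups did not overlap for 39 members on the higher side (25.6% of all genes) and for 1, Pold1, on the lower side (26.8%). Leaving out CD31- B220- replicate 3 made Pold1 a lower call, the count then being 1.

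From CD31+ B220+ to CD31+ B220- cells, 25 of 43 members were higher (18.5% of all genes) and 1 was lower (16.7%), with a median log2 difference of 0.75 against -0.01. The arrays did not overlap for 31 members on the higher side (24.1% of all genes). Without CD31+ B220+ replicate 2 the higher count was 15, and the 1 lower call, Pold1, did not hold without most single arrays, as given with its values below. From CD31+ B220- to CD31- B220- cells, 26 of 43 were higher (12.1% of all genes) and 0 were lower (16%), or 33 and 0 at an unadjusted p under 0.05 (16.2% and 21.9% of all genes). The median log2 difference was 0.74, against -0.07 over all genes, and 34 members did not overlap on the higher side (17.3%). That higher count was 17 without CD31+ B220- replicate 2, and 17 also without CD31- B220- replicate 1 or without CD31- B220- replicate 2. Since 4 of the tested members were undetected on some arrays, the counts were repeated for the 39 detected on all 11, an alternative added after seeing the data. They were 34 higher and 0 lower between the outer fractions, 23 and 1 in the first step and 23 and 0 in the second, where 24%, 19% and 13.1% of the 6253 genes so detected were higher and 27.5%, 20.8% and 17.5% lower.

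Set against HSC, CD31+ B220+ cells showed no common shift. Of 43 members, 10 were higher (18.4% of all genes) and 3 were lower (26.9%), with a median log2 difference of 0.07 against -0.06 over all genes. CD31+ B220- cells had 20 members higher than HSC (17.5%) and 1 lower (25%), with a median of 0.59 against -0.09. In CD31- B220- cells 37 members were higher than in HSC (20.6%) and 0 lower (29.5%), or 38 and 0 at an unadjusted p under 0.05 (23.3% and 32.5%), with a median of 1.49 against -0.08. Arrays did not overlap with the HSC arrays on the higher side for 13 members in CD31+ B220+ (29.8% of all genes), 27 in CD31+ B220- (29.5%) and 40 in CD31- B220- cells (30.3%), and on the lower side for 8 (37.7%), 2 (37.6%) and 0 (39%). The 3 comparisons use the same 2 HSC arrays. Leaving out HSC replicate 1 gave 6 higher in the first and 0 lower in the second, and leaving out CD31+ B220+ replicate 3 gave 6 lower in the first.

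These directions against HSC depended on how the brighter HSC arrays were scaled. Quantile normalization gives every array the same distribution, whereas scaling each array to a common median lowered the median log2 difference of all genes to -1.22, -1.14 and -1.08 in the 3 fractions, in the order above. The members higher and lower than HSC were then 0 and 33 in CD31+ B220+, 2 and 15 in CD31+ B220- and 23 and 4 in CD31- B220- cells. Of all genes called, 8.93%, 10.6% and 13.1% were then higher, against 40.6%, 41.2% and 41.1% with quantile normalization. Relative to the median of all genes under that scaling, 23, 37 and 41 of 43 members lay above it. Between fractions the same scaling put the median of all genes between -0.04 and 0.07 and called 25 members higher at the first step, 24 at the second and 40 between the outer fractions. At the first step 63.7% of the genes called were then higher, against 52.6%.

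**Figure D2:**
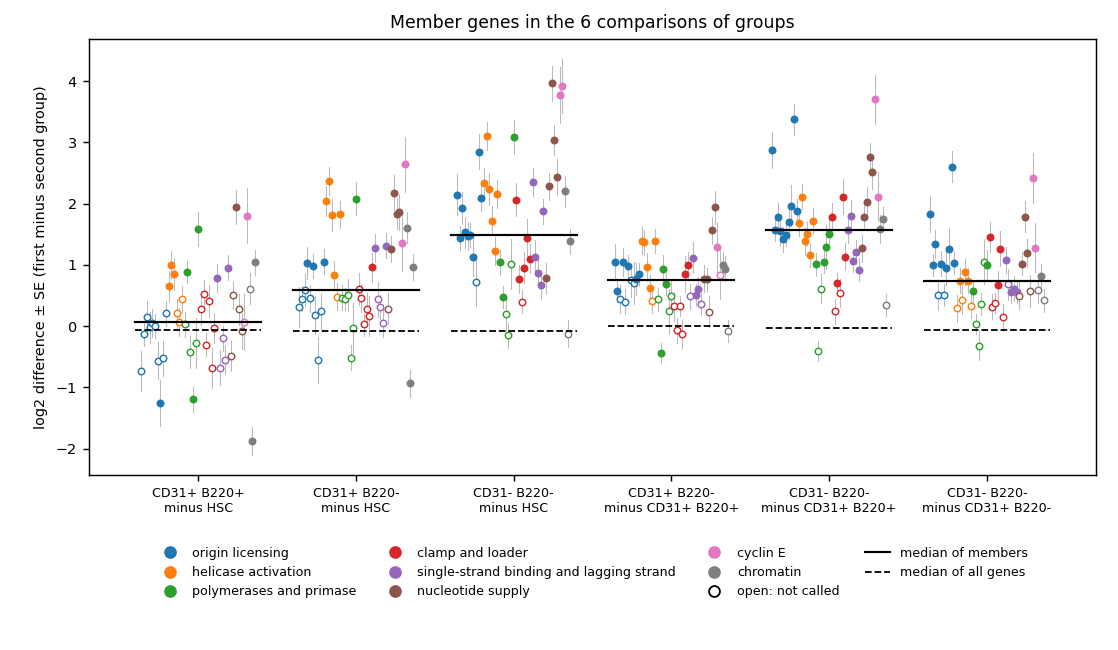
Log2 difference ± SE (y axis) of each of the 43 tested members in the 6 comparisons, with quantile normalization and coloured by role; filled points passed limma's adjusted p under 0.05, solid lines are the members' medians and dashed lines those of all genes. The members' median lies on the all-gene median only for CD31+ B220+ against HSC (0.07 against -0.06), and with median scaling the members of CD31+ B220+ and CD31+ B220- cells fell mostly below HSC.

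**Figure D3:**
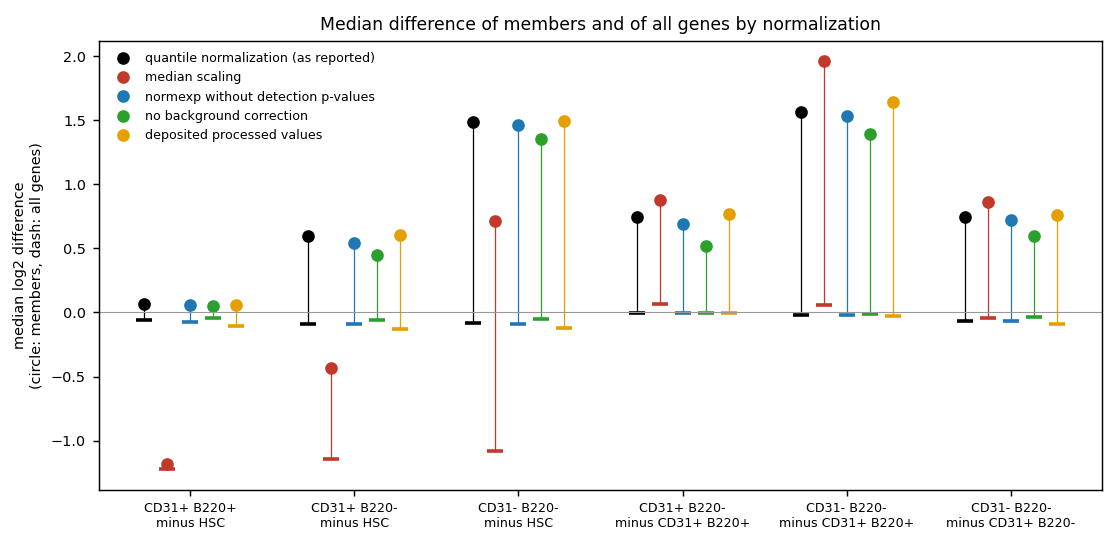
Median log2 difference (y axis) of the members (circles) and of all genes (dashes) in the 6 comparisons under 5 ways of processing. In the comparisons with HSC median scaling lowers both, to -1.18 and -1.22 for CD31+ B220+ cells, while between fractions the members' medians stay between 0.52 and 1.96 and above those of all genes.

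All 10 licensing genes were higher in CD31- B220- than in CD31+ B220+ cells (22.5% of all genes), with a median log2 difference of 1.73, and 8 of 10 were higher than in CD31+ B220- cells (12.1%). Orc1, the large subunit of the origin recognition complex (chr4:108575705-108616030 in GRCm38.p6), read 5.13 and 5.19 in HSC, 4.63, 4.54 and 4.72 in CD31+ B220+, 6.09, 5.05 and 5.07 in CD31+ B220- and 8.18, 7.86 and 7.97 in CD31- B220- cells. It was detected on all 3 CD31- B220- arrays, on 1 of 3 CD31+ B220- arrays and on none of the CD31+ B220+ and HSC arrays. The CD31- B220- level was thus at least 5.61-fold higher than in CD31+ B220+ cells, a bound set by the lowest signal counted as detected. It was 6.08-fold higher than in CD31+ B220- cells (log2 difference 2.60 ± 0.25), or 5.28-fold with the undetected CD31+ B220- arrays set at that limit. Limma gave adjusted p = 7.64e-07 and 1.63e-05 for these differences, in that order. Orc1 passed the detection filter only through its CD31- B220- arrays, so its p-values and calls are no support for a higher level there. The other Orc1 probe was detected on no array.

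Cdc6, the ATPase that brings MCM to the origin, followed the order of the fractions without overlap between CD31- B220- arrays and any other. Its levels were 8.69 and 8.65 in HSC, 8.48, 7.50 and 7.84 in CD31+ B220+, 9.25, 8.68 and 9.02 in CD31+ B220- and 11.12, 11.09 and 10.24 in CD31- B220- cells. The CD31- B220- level was 7.35-fold higher (log2 difference 2.88 ± 0.30, adjusted p = 9.65e-06) than that of CD31+ B220+ and 3.55-fold higher (log2 difference 1.83 ± 0.30, adjusted p = 0.000716) than that of CD31+ B220- cells. Its partner Cdt1, which escorts MCM to origins, read 10.60 and 10.60 in HSC, 10.60, 10.49 and 10.34 in CD31+ B220+, 11.08, 10.82 and 11.24 in CD31+ B220- and 12.21, 12.14 and 11.77 in CD31- B220- cells. The CD31- B220- arrays of Cdt1 again lay above all others, and HSC and CD31+ B220+ arrays touched. Orc6, the smallest subunit of the origin recognition complex, read 9.72 and 9.94 in HSC, 10.11, 9.85 and 10.16 in CD31+ B220+, 10.93, 10.69 and 11.03 in CD31+ B220- and 12.10, 12.04 and 11.62 in CD31- B220- cells. The 3 fractions did not overlap for Orc6, and each step between them passed the test.

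The MCM ring itself was higher too. Mcm2, Mcm3, Mcm4, Mcm5, Mcm6 and Mcm7, its subunits, were all higher in CD31- B220- than in CD31+ B220+ cells, and between the CD31+ fractions limma called Mcm3 and Mcm5 with the probes used. Mcm5 read 11.66 and 11.78 in HSC, 11.73, 11.56 and 11.90 in CD31+ B220+, 12.78, 12.54 and 12.81 in CD31+ B220- and 13.39, 13.30 and 12.94 in CD31- B220- cells. For Mcm5 both B220- fractions lay above every HSC and CD31+ B220+ array without overlap. Mcm6 read 10.60 and 11.64 on the HSC arrays, a wide gap between replicates, and 10.29, 10.51 and 10.89 in CD31+ B220+, 11.14, 11.24 and 11.53 in CD31+ B220- and 12.43, 12.38 and 11.95 in CD31- B220- cells. Against HSC, Mcm7 was the 1 licensing gene called lower in CD31+ B220+ cells, 2.38-fold lower (log2 difference -1.25 ± 0.38, adjusted p = 0.0179), at 9.75 and 9.78 in HSC, 8.04, 8.19 and 9.30 in CD31+ B220+, 8.73, 9.80 and 9.11 in CD31+ B220- and 10.59, 10.27 and 10.56 in CD31- B220- cells. That call rests on the probe used: the second Mcm7 probe, detected on all 11 arrays, gave a log2 difference of 0.98 in the opposite direction (adjusted p = 0.0433), and the call was also lost without either HSC array (adjusted p = 0.0830 and 0.0880) and without CD31+ B220+ replicate 1 or 2 (0.0575 and 0.0574).

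Promoters of the members were searched for E2F-type letters, since E2F factors are known regulators of replication genes in S phase. RefSeq promoter windows in GRCm38.p6, from 250 bases before to 50 after the transcript start, were matched by Entrez gene identifier for 37 of the 45 members (43 windows). The words TTTCCCGC or TTTGGCGC on either strand stood in 11 of 43 windows (25.6%), from 11 of 37 genes, against 1.56% of all 32851 windows, and CCAAT, the word bound by NF-Y, on either strand in 25 of 43 (58.1%) against 37.4%. The 11 genes were Cdc6, Cdt1, Gins3, Mcm3, Mcm5, Mcm6, Mcm7, Pola1, Pold1, Pole2 and Rfc3, so they included Pold1 and Rfc3, which missed the F-test, and the untested Pola1 and Pole2. A match is a description of letters and not a bound site. The stretches shown are those of the tested members with a match before the start. They lie at chr11:98908008-98908150 (Cdc6, + strand), chr8:95633459-95633558 (Gins3, + strand), chr8:75109355-75109508 (Mcm5, + strand), chr1:128359706-128359820 (Mcm6, - strand) and chr5:138171884-138172053 (Mcm7, - strand). Each is written 5′ to 3′ in the direction of the gene and ends at the base before the start, and capitals mark the E2F-type words and CCAAT on either strand (GCGGGAAA, GCGCCAAA and ATTGG are the words of the opposite strand).
Cdc6: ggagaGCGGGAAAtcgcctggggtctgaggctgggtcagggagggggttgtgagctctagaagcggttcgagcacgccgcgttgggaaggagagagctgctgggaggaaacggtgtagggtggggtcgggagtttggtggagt
Gins3: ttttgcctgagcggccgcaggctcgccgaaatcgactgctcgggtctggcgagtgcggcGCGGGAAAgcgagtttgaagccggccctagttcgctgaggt
Mcm5: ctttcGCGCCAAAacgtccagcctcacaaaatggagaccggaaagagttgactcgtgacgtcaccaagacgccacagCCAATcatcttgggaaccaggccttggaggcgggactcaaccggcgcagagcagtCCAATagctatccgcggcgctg
Mcm6: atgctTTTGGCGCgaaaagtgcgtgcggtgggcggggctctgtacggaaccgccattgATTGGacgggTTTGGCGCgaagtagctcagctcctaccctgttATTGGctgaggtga
Mcm7: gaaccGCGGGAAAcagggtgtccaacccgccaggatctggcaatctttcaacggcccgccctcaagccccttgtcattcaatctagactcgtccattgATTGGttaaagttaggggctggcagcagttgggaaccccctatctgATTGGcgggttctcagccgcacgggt
Counted from the start, where -1 is the base before it, the E2F-type words begin at -138 in Cdc6, -41 in Gins3 and -149 in Mcm5. They begin at -165 in Mcm7, and at -110 and -47 in Mcm6, the only member among these 5 with a repeated match. The start is that of the transcript of the promoter window. In Cdc6, Mcm5 and Mcm7 it lies inside the RefSeq span of the gene. The Cdc6 and Mcm7 stretches thus lie wholly within the gene and the Mcm5 stretch in part.

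Of the 6 helicase activation genes, 5 were higher in CD31+ B220- than in CD31+ B220+ cells (18.5% of all genes, median log2 difference 1.17) and 3 of 6 rose further in CD31- B220- cells (12.1%, median 0.58). Mcm10, which helps to switch the loaded helicase on, read 8.75 and 9.22 in HSC, 9.69, 9.11 and 9.47 in CD31+ B220+, 10.80, 10.90 and 10.73 in CD31+ B220- and 11.29, 11.18 and 10.95 in CD31- B220- cells. Cdc45, the helicase cofactor, read 7.56 and 7.66 in HSC, 8.46, 7.83 and 8.48 in CD31+ B220+, 9.80, 9.45 and 9.70 in CD31+ B220- and 10.18, 10.01 and 9.64 in CD31- B220- cells. For both genes the B220- fractions lay above all HSC and CD31+ B220+ arrays, and for Cdc45 they overlapped each other. From CD31+ B220+ to CD31+ B220- cells Cdc45 was 2.63-fold higher (log2 difference 1.39 ± 0.22, adjusted p = 0.000472) and Mcm10 2.62-fold higher (log2 difference 1.39 ± 0.20, adjusted p = 0.000246).

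Gins1, Gins2, Gins3 and Gins4 encode the GINS complex. Gins1 read 7.16 and 7.61 in HSC, 8.48, 8.13 and 8.55 in CD31+ B220+, 9.90, 9.64 and 9.72 in CD31+ B220- and 10.72, 10.58 and 10.18 in CD31- B220- cells, with no overlap between any groups. Against HSC it was 5.15-fold higher (log2 difference 2.36 ± 0.23, adjusted p = 1.13e-05) in CD31+ B220- cells and 8.62-fold higher (log2 difference 3.11 ± 0.23, adjusted p = 8.63e-07) in CD31- B220- cells. Under median scaling these log2 differences were 0.95 and 1.87. Gins4 read 10.35 and 10.10 in HSC, 10.50, 10.26 and 10.12 in CD31+ B220+, 10.74, 10.65 and 10.73 in CD31+ B220- and 11.49, 11.80 and 11.07 in CD31- B220- cells. Of the GINS genes Gins4 was the 1 not called between the CD31+ fractions, and its HSC and CD31+ B220+ arrays overlapped.

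Of the 6 polymerase and primase genes tested, 4 were higher in CD31- B220- than in CD31+ B220+ cells (22.5% of all genes) and 3 were higher than in HSC (20.6%). Pold1, the catalytic subunit of polymerase delta, went against the rest: it read 10.91 and 11.03 in HSC, 11.76, 11.91 and 11.89 in CD31+ B220+, 11.29, 11.38 and 11.57 in CD31+ B220- and 11.40, 11.33 and 11.61 in CD31- B220- cells. Its CD31+ B220+ arrays lay above all others and its HSC arrays below all others. In CD31+ B220- cells it was 1.36-fold lower (log2 difference -0.44 ± 0.16, adjusted p = 0.0491) than in CD31+ B220+ cells. That adjusted p was just under the threshold and lay between 0.0564 and 0.468 in 15 of 22 alternatives, the deposited processed values (0.0592) and median scaling (0.468) among them. Pold2, the accessory subunit of the same polymerase, read 9.46 and 9.83 in HSC, 9.60, 8.90 and 9.19 in CD31+ B220+, 10.27, 10.02 and 10.18 in CD31+ B220- and 10.04, 10.05 and 9.43 in CD31- B220- cells. Pold2 was highest in CD31+ B220- cells, and its CD31- B220- arrays overlapped those of HSC and of CD31+ B220+ cells.

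Primase makes the RNA primers on which polymerase alpha starts. Its large subunit Prim2 read 6.87 and 7.33 in HSC, 8.82, 8.45 and 8.78 in CD31+ B220+, 9.17, 9.09 and 9.29 in CD31+ B220- and 10.50, 10.44 and 9.61 in CD31- B220- cells. Prim2 separated all 4 groups without overlap, and against HSC it was 3.00-fold higher (log2 difference 1.59 ± 0.27, adjusted p = 0.000639) in CD31+ B220+ and 4.23-fold higher (log2 difference 2.08 ± 0.27, adjusted p = 0.000114) in CD31+ B220- cells. Median scaling took the first of these to a log2 difference of -0.04 (adjusted p = 0.906) and the second to 0.62 (adjusted p = 0.0813), and neither was then called. Prim1, the catalytic primase subunit, was detected on 2 of 2 HSC, 1 of 3 CD31+ B220+, 1 of 3 CD31+ B220- and 3 of 3 CD31- B220- arrays and read 5.39 and 5.27 in HSC, 4.53, 4.76 and 5.88 in CD31+ B220+, 4.91, 5.18 and 5.79 in CD31+ B220- and 6.25, 6.87 and 5.92 in CD31- B220- cells. Pole, the catalytic subunit of the leading-strand polymerase epsilon, read 8.72 and 8.81 in HSC, 7.74, 7.33 and 7.64 in CD31+ B220+, 8.02, 8.37 and 8.37 in CD31+ B220- and 8.77, 8.43 and 8.64 in CD31- B220- cells. Against HSC, Pole was 2.29-fold lower (log2 difference -1.20 ± 0.20, adjusted p = 0.000518) in CD31+ B220+ cells, and its CD31- B220- arrays overlapped the HSC arrays. Pola2, the regulatory subunit of polymerase alpha, rose in the second step without overlap, from 9.51, 9.36 and 9.75 in CD31+ B220- to 10.35, 10.07 and 9.93 in CD31- B220- cells.

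Clamp and clamp-loader genes split. Pcna, the sliding clamp that holds polymerases on DNA, read 7.86 and 7.24 in HSC, 7.95, 7.66 and 7.91 in CD31+ B220+, 8.24, 7.86 and 8.39 in CD31+ B220- and 9.59, 9.98 and 9.29 in CD31- B220- cells. Its CD31- B220- arrays stood above all other arrays, which overlapped one another. Of the 6 genes of the group, CD31- B220- cells had 5 at a higher level than HSC (20.6% of all genes), 4 than CD31+ B220+ (22.5%) and 3 than CD31+ B220- cells (12.1%). Rfc4, a small subunit of the loader that opens the clamp, read 9.29 and 9.41 in HSC, 8.14, 8.40 and 9.46 in CD31+ B220+, 9.64, 9.64 and 9.28 in CD31+ B220- and 10.80, 10.71 and 10.84 in CD31- B220- cells. Rfc5, another small subunit, read 9.16 and 9.35 in HSC, 9.33, 9.06 and 9.27 in CD31+ B220+, 10.23, 10.16 and 10.25 in CD31+ B220- and 10.55, 10.67 and 9.84 in CD31- B220- cells. Rfc4 passed the test in both steps, whereas Rfc5 passed in the first and its B220- fractions overlapped. Rfc1, the large subunit, read 9.61 and 9.99 in HSC, 10.35, 10.12 and 10.50 in CD31+ B220+, 10.56, 9.98 and 10.22 in CD31+ B220- and 10.64, 10.72 and 10.34 in CD31- B220- cells, and no comparison between fractions called it.

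All 5 genes of single-strand binding and lagging-strand joining were higher in CD31- B220- than in CD31+ B220+ cells (22.5% of all genes) and than in HSC (20.6%). Rpa1, Rpa2 and Rpa3, the subunits of the protein that coats single-stranded DNA, had CD31- B220- levels of 12.62 to 12.98, 9.24 to 9.58 and 11.06 to 11.63, above every other array of the same gene. Fen1, the nuclease that trims Okazaki fragments, read 10.14 and 10.36 in HSC, 11.05, 10.97 and 11.09 in CD31+ B220+, 11.55, 11.42 and 11.58 in CD31+ B220- and 12.96, 12.70 and 12.14 in CD31- B220- cells, with no overlap between groups. Lig1, the ligase that joins those fragments, read 10.23 and 10.54 in HSC, 9.67, 9.17 and 10.28 in CD31+ B220+, 11.08, 10.61 and 10.78 in CD31+ B220- and 11.41, 11.57 and 11.54 in CD31- B220- cells. Its HSC levels lay within or just above the range of CD31+ B220+ cells, and both B220- fractions lay above them. Fen1 was among the 10 members that CD31+ B220+ cells had at a higher level than HSC, and Lig1 was not.

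Ribonucleotide reductase turns ribonucleotides into deoxynucleotides. Rrm2, the small subunit of ribonucleotide reductase that is made in S phase (chr12:24708254-24714146 in GRCm38.p6), read 6.86 and 7.29 in HSC, 8.88, 8.59 and 9.57 in CD31+ B220+, 9.45, 9.38 and 8.93 in CD31+ B220- and 11.01, 11.13 and 10.97 in CD31- B220- cells. CD31- B220- arrays stood apart above, HSC arrays apart below, and the CD31+ fractions overlapped. Compared with HSC it was 15.6-fold higher (log2 difference 3.96 ± 0.28, adjusted p = 7.12e-07) in CD31- B220- cells, 4.53-fold higher (log2 difference 2.18 ± 0.28, adjusted p = 0.000103) in CD31+ B220- cells and 3.84-fold higher (log2 difference 1.94 ± 0.28, adjusted p = 0.000182) in CD31+ B220+ cells. Median scaling left log2 differences of 2.82, 0.73 and 0.34, the last pair with adjusted p = 0.0779 and 0.403. From CD31+ B220- to CD31- B220- cells Rrm2 was 3.45-fold higher (log2 difference 1.78 ± 0.25, adjusted p = 0.000273). Rrm1, the large subunit of the same enzyme, read 9.50 and 9.87 in HSC, 10.22, 9.99 and 10.35 in CD31+ B220+, 10.99, 10.97 and 10.88 in CD31+ B220- and 12.14, 12.12 and 11.63 in CD31- B220- cells, and its 3 fractions did not overlap.

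Tyms and Tk1 make thymidine nucleotides, by synthesis and by salvage. Tyms (thymidylate synthase, chr5:30038546-30073645) read 9.14 and 9.10 in HSC, 9.07, 8.65 and 9.41 in CD31+ B220+, 11.34, 10.75 and 10.84 in CD31+ B220- and 11.80, 11.81 and 11.05 in CD31- B220- cells. Tyms rose at the first step, 3.83-fold higher (log2 difference 1.94 ± 0.27, adjusted p = 0.000175), and its B220- fractions overlapped. Tk1 (thymidine kinase, chr11:117815519-117826087) read 8.47 and 9.30 in HSC, 9.20, 8.96 and 9.30 in CD31+ B220+, 10.73, 10.74 and 10.69 in CD31+ B220- and 12.15, 11.96 and 11.65 in CD31- B220- cells. Tk1 separated the 3 fractions, being 2.96-fold higher (log2 difference 1.56 ± 0.22, adjusted p = 0.000239) at the first step and 6.79-fold higher (log2 difference 2.76 ± 0.22, adjusted p = 1.35e-06) between the outer fractions. Dut, which destroys dUTP so that uracil stays out of DNA, read 7.68 and 8.07 in HSC, 7.66, 7.14 and 7.36 in CD31+ B220+, 8.14, 8.03 and 8.31 in CD31+ B220- and 8.83, 8.90 and 8.25 in CD31- B220- cells. Dut was higher in CD31- B220- than in CD31+ B220+ cells, but its B220- fractions overlapped.

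Cyclin E binds Cdk2 at the start of S phase, and both of its genes had higher levels in CD31- B220- cells than in each other group. Ccne1 (chr7:38097984-38107490) read 5.54 and 6.18 in HSC, 6.80, 4.83 and 6.15 in CD31+ B220+, 7.56, 7.13 and 6.96 in CD31+ B220- and 9.52, 9.72 and 9.65 in CD31- B220- cells, detected on 2 of 3 CD31+ B220+ arrays and on all others. The CD31- B220- arrays lay within a range of 0.2 and above every other array, while the CD31+ B220+ arrays spread over 1.97. Ccne1 was 13.01-fold higher (log2 difference 3.70 ± 0.40, adjusted p = 1.58e-05) in CD31- B220- than in CD31+ B220+ cells, 5.33-fold higher (log2 difference 2.41 ± 0.40, adjusted p = 0.000913) than in CD31+ B220- cells and 13.6-fold higher (log2 difference 3.77 ± 0.45, adjusted p = 3.75e-05) than in HSC. With the undetected CD31+ B220+ array set at the detection limit the first of these was 11.2-fold, and median scaling took the log2 difference from HSC to 2.68. Ccne2 read 5.39 and 5.12 in HSC, 6.92, 6.62 and 7.63 in CD31+ B220+, 8.55, 7.20 and 7.93 in CD31+ B220- and 9.87, 9.08 and 8.56 in CD31- B220- cells and was detected on 1 of 2 HSC arrays. Against HSC it was 15.1-fold higher (log2 difference 3.92 ± 0.45, adjusted p = 2.56e-05) in CD31- B220-, 6.23-fold higher (log2 difference 2.64 ± 0.45, adjusted p = 0.000666) in CD31+ B220- and 3.49-fold higher (log2 difference 1.80 ± 0.45, adjusted p = 0.00639) in CD31+ B220+ cells. With the undetected HSC array at the detection limit these folds were 14.4, 5.94 and 3.32, and with median scaling the log2 differences were 3.16, 1.78 and 0.84. Arrays within a fraction spread widely and the B220- fractions nearly met, 8.55 being the highest CD31+ B220- and 8.56 the lowest CD31- B220- array. The CD31+ B220+ call for Ccne2 was lost with median scaling (adjusted p = 0.0926) and without HSC replicate 2 (log2 difference 1.66, adjusted p = 0.0564).

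The chromatin genes split between HSC and the fractions. Chaf1b, a subunit of the assembly factor that places histones behind the fork, was high in HSC: it read 10.88 and 10.74 in HSC, 8.89, 8.77 and 9.15 in CD31+ B220+, 10.02, 9.64 and 9.97 in CD31+ B220- and 10.59, 11.03 and 10.44 in CD31- B220- cells. Relative to HSC it was 3.67-fold lower (log2 difference -1.88 ± 0.22, adjusted p = 3.84e-05) in CD31+ B220+ and 1.91-fold lower (log2 difference -0.94 ± 0.22, adjusted p = 0.00575) in CD31+ B220- cells, and its CD31- B220- arrays overlapped HSC. Without HSC replicate 1 the second of these missed the threshold (adjusted p = 0.0520). Chaf1a, the large subunit of the same factor, ran the other way against HSC, at 8.14 and 8.40 in HSC, 9.05, 8.67 and 8.93 in CD31+ B220+, 9.99, 9.53 and 10.09 in CD31+ B220- and 10.41, 10.85 and 10.14 in CD31- B220- cells. Limma called Chaf1a higher than HSC in both B220- fractions and not in CD31+ B220+ cells (log2 difference 0.61). With median scaling only 0 members in CD31+ B220+ and 2 in CD31+ B220- cells were called higher than HSC. Uhrf1, which brings the maintenance methyltransferase to newly copied DNA, read 11.12 and 11.40 in HSC, 12.50, 12.06 and 12.36 in CD31+ B220+, 12.29, 12.01 and 12.39 in CD31+ B220- and 12.64, 12.78 and 12.52 in CD31- B220- cells. Relative to HSC, Uhrf1 was 2.06-fold higher (log2 difference 1.04 ± 0.20, adjusted p = 0.0015) in CD31+ B220+ cells, a difference that median scaling took to 0.02 (adjusted p = 0.957), and no comparison between fractions called it.

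Taking the fractions as 2 steps, CD31+ B220+ to CD31+ B220- and CD31+ B220- to CD31- B220-, 13 members were called higher in both (2.4% of all genes), 12 in the first and not the second (16.1%), 13 in the second and not the first (9.7%) and 5 in neither (71.8%). Those called in both steps were Orc1, Orc6, Cdc6, Cdt1, Gins1, Gins3, Rfc4, Rpa1, Rpa2, Rrm1, Tk1, Ccne1 and Chaf1b. Orc1 was tested only because its CD31- B220- arrays passed the detection filter. Tyms, Mcm10, Cdc45, Gins2, Mcm3, Mcm5, Pold2, Pole, Rfc5, Lig1, Dut and Chaf1a were called in the first step, and Rrm2, Pcna, Fen1, Mcm2, Mcm4, Mcm6, Mcm7, Gins4, Pola2, Prim2, Rfc3, Rpa3 and Ccne2 in the second. The steps share the CD31+ B220- arrays, and whether a gene's steps differ from each other was not tested. Step calls also depended on the probe. With all probes tested by limma, the second Mcm7 probe was called in the first step (log2 difference 1.23, adjusted p = 0.0117). It was not called in the second (0.60, adjusted p = 0.221). Further Mcm6 probes were called in the first step (adjusted p = 0.00298 and 0.0103). The second Tyms and Dut probes were called in the second step (0.0266 and 0.0126). The second Cdc6 and Rfc4 probes were not called in the first (0.277 and 0.197), nor was the second Rpa2 probe (0.251). With all probes tested, the chosen Rpa2 probe itself missed both steps (adjusted p = 0.0540 and 0.0631), so its calls also depended on the adjustment.

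**Figure D4:**
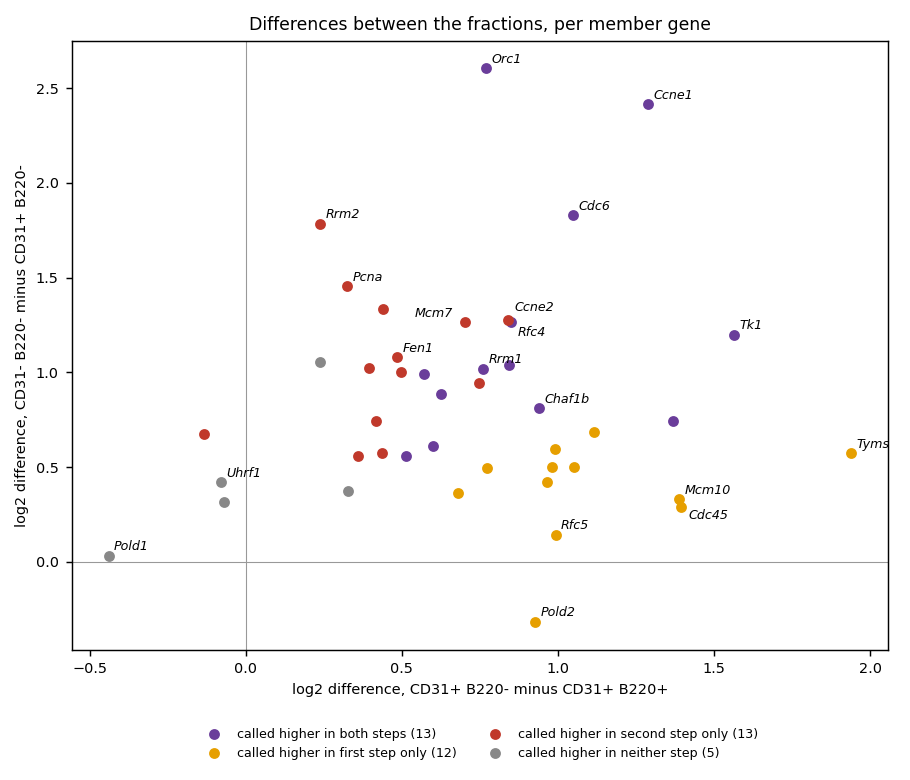
Log2 difference of each tested member at the first step (x axis, CD31+ B220- minus CD31+ B220+) and the second (y axis, CD31- B220- minus CD31+ B220-), coloured by the steps in which limma called it higher. Tyms lies far right and low (1.94 and 0.57), Rrm2 high on the left (0.24 and 1.78), Ccne1 high in both (1.29 and 2.41) and Pold1 at the far left near 0 on the y axis; the steps share the CD31+ B220- arrays.

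Markers of other cell types moved with these comparisons, and their part in the results was not tested. Erythroid markers were higher in CD31- B220- cells in 9 of 9 tested genes against CD31+ B220- (12.1% of all genes) and in 9 of 9 against CD31+ B220+ cells (22.5%), and their summed signal was 79835 to 95885 on CD31- B220- arrays, 8628 to 17850 on CD31+ B220-, 10188 to 17808 on CD31+ B220+ and 20471 to 24544 on HSC arrays. B lineage markers summed to 46599 to 48656 on CD31+ B220+, 10236 to 16652 on CD31+ B220-, 428 to 879 on CD31- B220- and 928 to 1016 on HSC arrays, and Blnk, Rag1 and Rag2 were detected on no CD31- B220- array. Neutrophil and granule markers summed to 66582 to 74410 on CD31+ B220-, 24024 to 63064 on CD31- B220-, 1472 to 7193 on CD31+ B220+ and 7409 to 7698 on HSC arrays. Macrophage and monocyte markers summed to 24005 to 29837 in both B220- fractions together, against 1808 to 4288 on the other arrays. Stromal and osteoblast markers were higher in CD31- B220- cells in 5 of 5 tested genes against CD31+ B220+ (22.5% of all genes, median log2 difference 3.14) and in 5 of 5 against CD31+ B220- cells (12.1%, median 2.89), and they summed to 3659 to 6265 on CD31- B220-, 119 to 509 on CD31+ B220-, 79.8 to 232 on CD31+ B220+ and 229.7 to 741 on HSC arrays. Of that list Lepr was detected on no CD31- B220- array.

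Of 9 tested mitosis genes, 7 were higher in CD31+ B220- than in CD31+ B220+ cells (18.5% of all genes) and 8 in CD31- B220- than in CD31+ B220+ cells (22.5%), and limma called 0 in either direction between CD31- B220- and CD31+ B220- cells, where 12.1% of all genes were higher and 16% lower. In that comparison 1 was higher at an unadjusted p under 0.05, 7 of the 9 differences were above 0 and their median was 0.23 on the log2 scale. The replication genes had 26 of 43 called and a median of 0.74 in that same comparison. Whether the lists differ was not tested.

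In 2 groups, 1 array was the lowest for most members, and how often it was so over all genes was not counted. Over all tested genes, the mean r with the other arrays of the group was 0.971 for CD31- B220- replicate 3, against 0.973 and 0.974. For CD31+ B220+ replicate 2 it was 0.978, against 0.974 and 0.977. CD31- B220- replicate 3 was the lowest of its 3 arrays for 35 of 43 members and had a summed neutrophil signal of 63064, against 24024 and 30279 on the others. With it 26 members were higher than in CD31+ B220- cells, and 31 without it. The part of the neutrophil signal in this was not tested. CD31+ B220+ replicate 2 was the lowest of its group for 33 of 43 members, with a summed neutrophil signal of 7193 against 1472 and 1498. Leaving it out gave 15 members higher in CD31+ B220- cells, as above. Over all arrays left out in turn, 37 to 39 members were higher in CD31- B220- than in CD31+ B220+ cells.

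**Figure D5:**
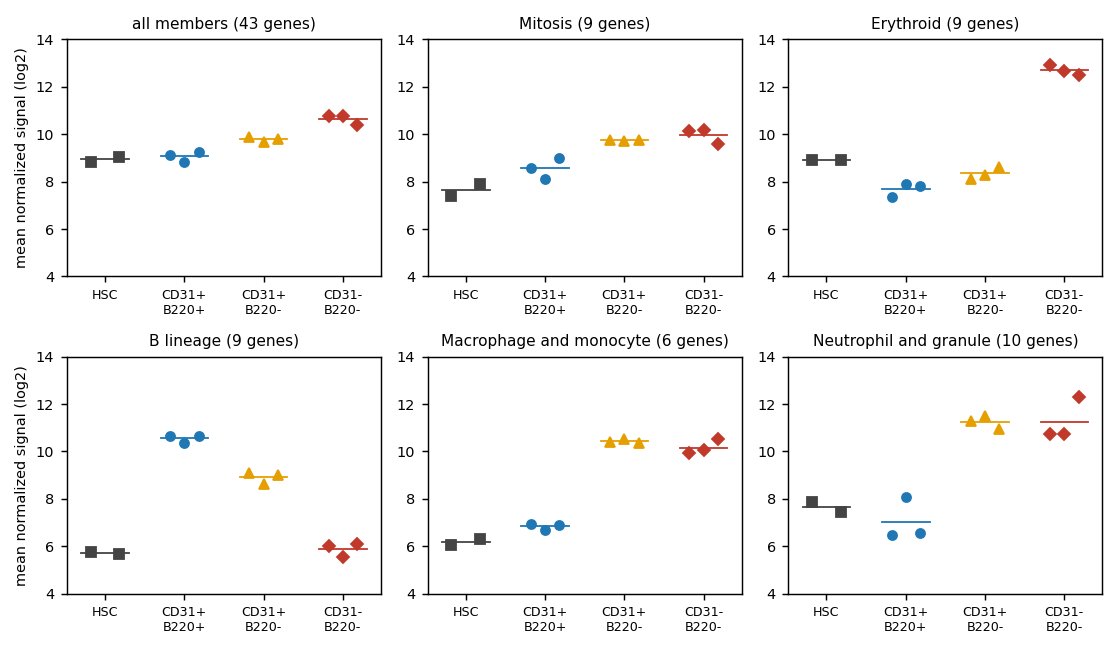
Mean normalized log2 signal (y axis) of the tested members and of 5 marker lists on each array, with 1 point per array and a line at the group mean. The members climb over the fractions in the order plotted, the mitosis genes lie lower in CD31+ B220+ than in both B220- fractions, erythroid markers are high in CD31- B220- cells and B lineage markers in CD31+ B220+ cells, and CD31- B220- replicate 3 is low for the members and high for neutrophil markers.

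Further probes of the same genes were read as a check on the probe choice. Of 21 members with more than 1 probe, 17 had further probes detected on at least 2 arrays, 35 in all. The other Orc1 probe, detected on no array, was not among them. For CD31- B220- minus CD31+ B220+ cells 34 of 35 had the sign of the chosen probe, and 27 were called higher and 0 lower. The exception was a Cdc6 probe detected on 3 arrays. At the first step between fractions 4 of 35 had the opposite sign and at the second 1, with 0 of them called. The sign was opposite for 10 of 35 in CD31+ B220+ minus HSC, 10 in CD31+ B220- minus HSC and 1 in CD31- B220- minus HSC. Of these, limma with all probes tested called the Mcm7 probe in the first and second (log2 differences 0.98 and 2.22, against -1.25 and -0.55 for the chosen probe) and that Cdc6 probe in the first (1.16, adjusted p = 0.0248, against -0.73).

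Among 58 other genes of replication, 53 were tested. Between CD31- B220- and CD31+ B220+ cells 30 were higher and 6 lower (22.5% and 22.3% of all genes), and between CD31- B220- and CD31+ B220- cells 17 and 8 (12.1% and 16%). Recql4, a helicase that acts when origins fire, was 5.60-fold higher (log2 difference 2.49 ± 0.24, adjusted p = 6.18e-06) between the outer fractions. Rrm2b, the ribonucleotide reductase subunit that p53 induces outside S phase, ran against Rrm2: its CD31- B220- level was 17.3-fold lower (log2 difference -4.11 ± 0.28, adjusted p = 3.34e-07) than that of CD31+ B220+ cells. Dctd, the deaminase of dCMP, was highest in HSC, and in CD31- B220- cells it was 14.1-fold lower (log2 difference -3.82 ± 0.37, adjusted p = 6.58e-06) than there. Relative to HSC, E2f2, a transcription factor of the E2F family, was 25.0-fold higher (log2 difference 4.64 ± 0.19, adjusted p = 9.45e-09) in CD31+ B220+ and 21.5-fold higher (log2 difference 4.42 ± 0.19, adjusted p = 2.71e-08) in CD31- B220- cells.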

How the data were processed

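Total RNA was labelled with biotin and hybridised to 11 Illumina MouseWG-6 v2 arrays, per the labels. Per the file headers, the deposited non-normalized values gave a mean bead intensity for each probe on each array, and beside it a fraction headed as a detection p-value. That deposited fraction rose with the signal (Spearman at least 0.987), and 1 minus it was taken as the detection p-value. The authors' processed values lay on a log scale of unstated base. Read as the authors' log2 values, they rose 1.10 to 1.13 per log2 unit computed here. Per the submitters' processing notes, lumi 1.1.0 was used, with no role stated.

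Intensities were background-corrected (limma 3.58.1 in R 4.3.3, normexp with detection p-values, offset 16), then quantile-normalized and turned into log2 values. Of 45281 probes 34885 had 1 gene symbol, 18 several and 10378 none. The brightest probe of each symbol was kept, and genes detected at p under 0.05 on at least 2 arrays were tested. All 11 arrays entered 1 limma fit, 2-sided, with Benjamini-Hochberg adjustment over 11367 genes in each of 6 comparisons and in an F-test over the fractions. An SE is that of the fit. The number of arrays limits precision. A fit to simulated data was made for CD31- B220- against CD31+ B220- cells. In it 67, 67 and 66 genes were changed by 0.5, 1 and 2 on the log2 scale. Of these, 1.49%, 38.8% and 95.5% were called, with 6 false calls among 11367 genes. Spreads were shuffled between genes, and the measured comparison called 3195 genes, so these rates cannot be carried over to it.

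Fold and p are given for the 4 largest called members per direction and comparison, and for up to 3 other replication genes per direction. The members, lists and tests were chosen with earlier results of these data known. No arrays held identical signals (highest r 0.988). Deviations of same-numbered replicates correlated at -0.08 to 0.18 (15 pairs), against -0.15 to 0.15 for the others (30 pairs). Of the 11 arrays, 4 correlated best with their own number. With 2 or 3 arrays per group, these values cannot show whether the numbers pair samples. Alternatives were scaling, background correction, offset, filter, probe choice, deposited processed values, a replicate block, single arrays left out and only the groups compared. Files were read with data.table (1.17.8). Figures used matplotlib 3.10.9 and pandas 2.3.3.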

Additional observations from a re-analysis of the deposited data

How the results depend on the processing

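Of 286 recounts of members called, 249 stayed within 1.5 times the reported count. Of 634 refits of single named differences 26 lost the call and 2 changed sign. Median scaling changed the comparisons with HSC, to 0 higher and 33 lower members for CD31+ B220+, 2 and 15 for CD31+ B220- and 23 and 4 for CD31- B220- cells, and gave 0 lower for CD31+ B220- minus CD31+ B220+. It took Prim2 for CD31+ B220+ minus HSC to a log2 difference of -0.043 that limma did not call (adjusted p = 0.906). The second-brightest probe reversed Mcm7 in that comparison (0.98). Without background correction 5 members were lower in CD31+ B220+ and 2 in CD31+ B220- cells than in HSC, and 1 in CD31- B220- than in CD31+ B220+ cells. An offset of 50, and a filter for detection on every array of a group, each gave 2 and 1 for the latter comparisons, and no filter gave 1 for the last. The 1 lower member of CD31+ B220- minus CD31+ B220+ was 0 with the deposited processed values, all probes tested singly, the second-brightest probe, only the groups compared, and the replicate number as a block. The block left every other count within 1.5 times, and the labels do not say whether the numbers pair the samples. Except for probe choice and filters, whose genes differ by construction, the cause of these changes was not tested.

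With each array left out in turn, higher and lower counts ran from 6 to 11 and 2 to 6 for CD31+ B220+ minus HSC, 16 to 21 and 0 to 1 for CD31+ B220- minus HSC, and 29 to 38 and 0 to 0 for CD31- B220- minus HSC. They ran from 15 to 25 and 0 to 1 for CD31+ B220- minus CD31+ B220+, 37 to 39 and 0 to 1 for CD31- B220- minus CD31+ B220+, and 17 to 31 and 0 to 0 for CD31- B220- minus CD31+ B220-. The F-test called 37 to 40 members. A lone HSC array was assumed to vary like the other groups. Rising means across the fractions were found in 38 members, or 41 with median scaling, and the highest of 4 groups was CD31- B220- in 39, or 31 with median scaling.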
